A study of Mus musculus with 36 samples.

Results

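The insulin-like growth factor (IGF) system was examined across the 36 libraries through 10 of the 30205 genes with a listed transcript. The 10 were taken by symbol: the ligands Igf1 and Igf2, the receptors Igf1r and Igf2r, and the binding proteins Igfbp2, Igfbp3, Igfbp4, Igfbp5, Igfbp6 and Igfbp7. The family was selected on earlier results of these data, in which Igf1 was among the strongest interactions of genotype with RANK-L culture. The values of Igf1 in macrophage and osteoclast cultures are therefore given as a description, with no test, and the same holds for every member's interaction of genotype with RANK-L.

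RNA came from 3 kinds of primary cells of 20-week-old mice, wild-type (WT) controls or mice null for the microRNA gene Mir324, with 6 libraries in each of 6 groups. Flushed marrow from the long bones of both genotypes was first grown for 3 days in the macrophage growth factor M-CSF at 100 ng/mL. Bone marrow macrophages (BMM) then had 5 days with M-CSF at 30 ng/mL, and osteoclast cultures (OC) had the same M-CSF plus the osteoclast-inducing cytokine RANK-L at 50 ng/mL for the same 5 days. Osteoblast cultures (OB) grew out of collagenase-digested bone chips over about 6 weeks and were then held for 18 days in osteogenic medium with 2 mM β-glycerophosphate and 50 µg/mL ascorbic acid, with no RANK-L or M-CSF named. The labels do not say whether libraries of a group came from separate mice, so p-values measure the spread between these libraries, which may be technical.

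IGF1 and IGF2 are secreted peptides that act through the receptor tyrosine kinase IGF1R, which signals through insulin receptor substrates to PI3K and AKT. IGF2R, also known as the cation-independent mannose 6-phosphate receptor, carries lysosomal enzymes and takes up IGF2 for degradation. The IGF binding proteins hold the ligands outside the cell and lengthen their life or keep them from the receptor, and bone matrix is a known store of IGFs and binding proteins.

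Depth ran from 14118972 to 26347581 estimated counts per library. The level of the deleted gene, Mir324, was not analysed here, and no check of the genotype labels rests on it. The cell type labels were checked against marker lists, whose TPM values (a scale corrected for transcript length that sums to the same total in every library) were summed in each library. The 10 osteoclast markers summed to between 31382 and 35719 TPM in WT OC, but to between 258 and 587 TPM in the libraries labelled null OC, where all 10 were lower and Calcr, the calcitonin receptor, had no count in any library. Their part in the differences described for null OC was not tested, and fewer osteoclasts cannot be told apart from less RNA per cell. The OB libraries of both genotypes held macrophage and osteoclast transcripts beside osteoblast ones: the 10 macrophage markers summed to between 6919 and 8068 TPM in WT OB and between 4583 and 5510 TPM in null OB, and the 10 osteoclast markers to between 4161 and 5229 TPM in WT OB and between 5426 and 8253 TPM in null OB. The 8 fibroblast and stromal markers reached at most 1.15 TPM in WT BMM and 0.406 TPM in WT OC, against 4.14 to 7.58 TPM in null BMM and 4.73 to 21.5 TPM in null OC, with the highest in replicate 6.

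Because the null mice lack miR-324, its 2 mature sequences (RefSeq, GRCm38.p6, plus strand of chromosome 11) are printed with their seeds, bases 2 to 8, in capitals, at chr11:70012060-70012082 for the 5p and chr11:70012095-70012114 for the 3p form.
mmu-miR-324-5p: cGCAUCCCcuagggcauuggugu
mmu-miR-324-3p: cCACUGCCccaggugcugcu
The reverse complements of the seeds, GGGATGC for 5p and GGCAGTG for 3p, were looked for on the sense strand of 3′ UTRs, taking the longest one annotated per gene (GENCODE M21, GRCm38). A match to these 7 letters is a description and not a site. Among 13554 tested genes with an annotated 3′ UTR, 9.7% held the 5p letters and 17.7% the 3p letters, with a median UTR of 1365 bases. Both ligands, both receptors and Igfbp5 held a match, and the other 5 binding proteins held neither. The matches of the members that differed between groups, and of the other member with a 5p match, are shown with 9 bases on each side and the 7 letters in capitals.
Igf1, 5p, chr10:87932247-87932271, plus strand: tctgtcactGGGATGCcaccacaat
Igfbp5, 5p, chr1:72860149-72860173, minus strand: gcacagaaaGGGATGCctcctgttg
Igf1r, 3p, chr7:68227563-68227587, plus strand: gcccgcccaGGCAGTGgatccaagc
Igf1r, 3p, chr7:68231096-68231120, plus strand: acctcttttGGCAGTGcctgtgcct
Igf1r, 3p, chr7:68233115-68233139, plus strand: tgggtgttgGGCAGTGtgcagacac
Igf2r, 3p, chr17:12682670-12682694, minus strand: ctgtgctagGGCAGTGtcccaggat
The UTRs of the members differ in length, from 209 bases in Igfbp6 to 6308 in Igf1 and 7267 in Igf1r, and Igf2 held 2 further 3p matches in 3050 bases. The deposited transcript of Igf1r is 4489 bases long, against 11409 bases annotated for Igf1r-201, so most of its 3′ UTR was not counted.

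The members fell into 2 patterns of expression. Igf1, Igfbp4, Igf1r and Igf2r were detected in every library. Igfbp2, Igfbp3, Igfbp5, Igfbp6 and Igfbp7 were found at substantial levels in the osteoblast cultures alone among these groups, and Igf2 was close to the limit of detection everywhere.

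**Figure D1:**
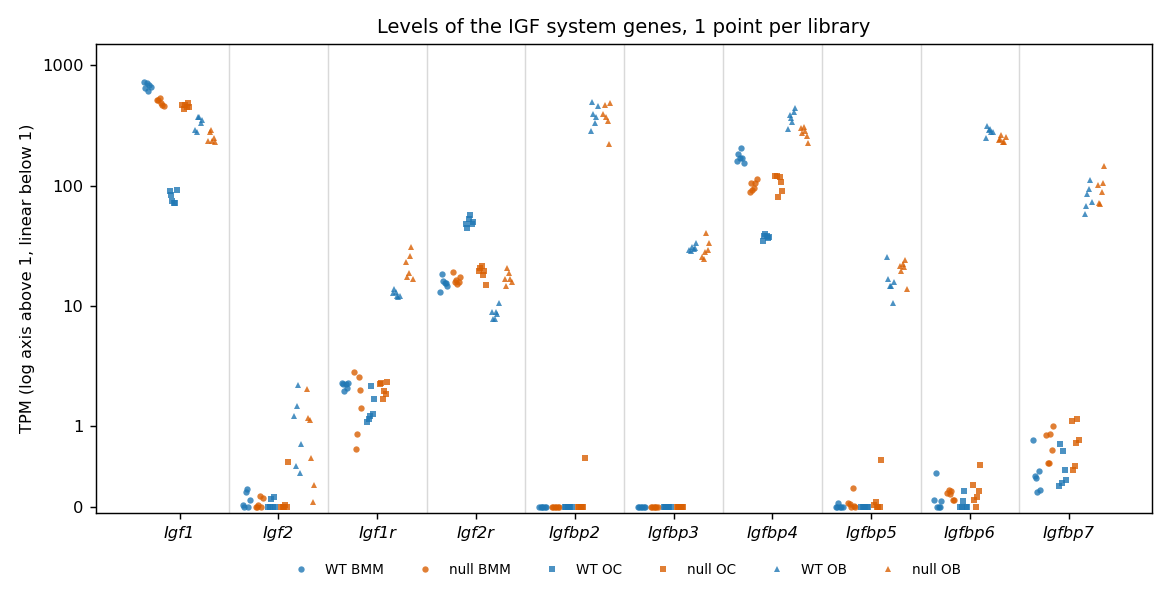
TPM of the 10 members (y axis, logarithmic above 1 and linear below) in each of the 36 libraries, 1 point per library, blue for WT and orange for null, with circles for BMM, squares for OC and triangles for OB. Igf1, Igf1r, Igf2r and Igfbp4 have points above 0 in all groups, and Igfbp2 and Igfbp3 lie at 0 outside the OB cultures apart from 1 null OC library for Igfbp2.

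Igf1 (GRCm38, chromosome 10, 87858265 to 87937042, plus strand) was the most abundant member per length in BMM and OC of both genotypes. In TPM it averaged 671 in WT BMM, 497 in null BMM, 80.5 in WT OC and 459 in null OC, and 333 in WT OB and 253 in null OB. In that order of levels, from WT BMM down through null BMM, null OC, WT OB and null OB to WT OC, the ranges of null BMM and null OC overlapped, as did those of WT OB and null OB, and the other neighbours were separate. In CPM (counts relative to library size, with TMM factors over all 36 libraries), WT BMM ran from 1144 to 1294 with a median of 1223, and WT OC from 118 to 139 with a median of 128. The WT libraries of the 2 cultures therefore lay far apart, at a log2 ratio (the fitted fold change on the log2 scale) of -3.26 (SE 0.06), or 9.58-fold lower with RANK-L. In null libraries Igf1 ran from 730 to 836 CPM in BMM, median 759, and from 593 to 754 in OC, median 634, so that the 2 ranges overlapped and the log2 ratio was -0.21 (SE 0.06). Between genotypes the log2 ratio of Igf1 in null against WT was -0.66 (SE 0.06) in BMM and 2.38 (SE 0.07) in OC, with no overlap of the libraries in either culture. The interaction of genotype with RANK-L was 3.05 (SE 0.09) on the log2 scale, the value for which the gene was chosen. Over the BMM and OC groups the summed TPM of the macrophage markers ran the same way as Igf1. Its medians were 19414 in WT BMM, 14626 in null BMM, 7011 in WT OC and 13680 in null OC. In OB they were 7199 in WT and 5032 in null, so the likeness did not extend to OB, where Igf1 lay above WT OC. Single markers differed: 8 of 10 were called higher and 1 lower in null OC, and 1 higher and 8 lower in null BMM. Of all genes tested, 65.6% were called between genotypes in OC and 52.3% in BMM. Their part in the Igf1 values was not tested.

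The size of the Igf1 difference in BMM depended on how transcripts of unequal length were handled. An offset for the average length of a gene's transcripts in each library changed it from -0.66 to -0.27, while the OC difference became 2.72.

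**Figure D2:**
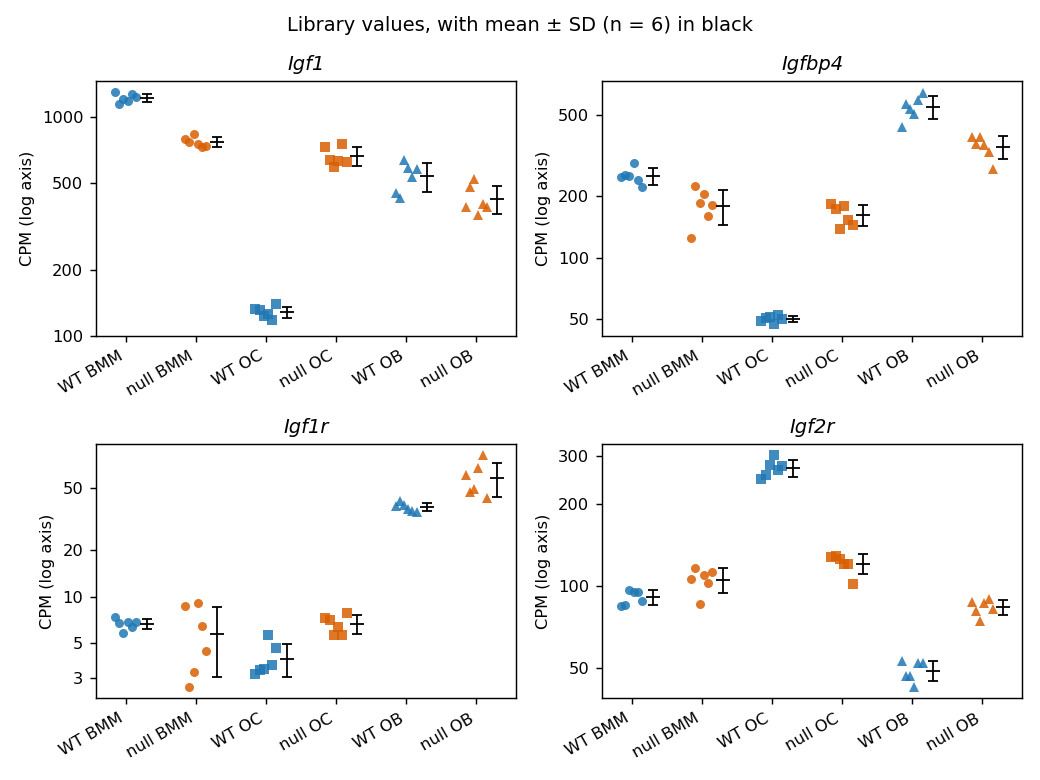
CPM (logarithmic y axes) of Igf1, Igfbp4, Igf1r and Igf2r in each library by group, with the mean and SD of 6 libraries in black. Igf1 and Igfbp4 are lowest in WT OC and Igf2r is highest there, while the null OC libraries of all 4 genes lie near the null BMM libraries.

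Igf2 (chromosome 7, 142650766 to 142666816, minus strand), the fetal growth ligand that is expressed from the paternal allele in most mouse tissues, had at most 3 counts in any BMM or OC library. In WT OB it had between 9 and 37 counts per library and in null OB between 2 and 24. Summed over WT libraries it was 16.6-fold higher in OB than in BMM, with an exact 95% interval of 7.80 to 42.2 from 116 against 7 counts, which covers counting error only. Its level in OB was 1.10 ± 0.678 TPM (SD, n = 6) in WT, far below the 333 TPM of Igf1 in the same cultures. The genotypes overlapped in OB, at a log2 ratio of -0.62 (SE 0.48, adjusted p 0.360, edgeR), so that no difference was detectable at this depth.

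Of the receptors, Igf1r (chromosome 7, 67952827 to 68233668, plus strand) was highest in the osteoblast cultures. It had 37.7 ± 2.20 CPM (SD, n = 6) in WT OB against 6.68 ± 0.531 in WT BMM, a log2 ratio of 2.498 (SE 0.20, adjusted p 5.03e-14). That comparison of cell types called 76.8% of all genes tested (quasi-likelihood test of edgeR with p adjusted by Benjamini-Hochberg over all genes, threshold 0.05). In it Igfbp4 was also higher in WT OB, by 1.13 (SE 0.10, adjusted p 2.64e-12), and Igf2r was lower, by a log2 ratio of -0.89 (SE 0.07, adjusted p 3.76e-14). Per length, Igf1r reached 22.2 ± 5.52 TPM in null OB and 12.7 ± 0.773 in WT OB, and in the other groups its mean lay between 1.43 and 2.19 TPM with overlapping ranges.

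In WT cultures RANK-L went with changes in 3 of the 4 members other than Igf1 that passed the filter on low counts, where 60.5% of all genes were called. Igfbp4 fell, from between 221 and 293 CPM in WT BMM, median 249, to between 47.2 and 52.0 in WT OC, median 50.3. The ranges were separate, and the log2 ratio was -2.33 (SE 0.10, adjusted p 3.55e-17). Igf2r rose, from between 84.6 and 97.1 CPM, median 91.7, to between 246 and 302, median 271. No BMM library came near the OC range, and the log2 ratio was 1.57 (SE 0.07, adjusted p 8.55e-17). Igf1r fell, from between 5.81 and 7.38 CPM, median 6.82, to between 3.15 and 5.62, median 3.53, with separate ranges and a log2 ratio of -0.75 (SE 0.23, adjusted p 0.00555). On the TPM scale its ranges overlapped, from 1.96 to 2.30 in WT BMM and from 1.09 to 2.15 in WT OC. Igfbp7, with at most 11 counts per library, did not pass the test (log2 ratio 0.15, SE 0.41, adjusted p 0.774).

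In null cultures none of the same 4 members was called between OC and BMM, where 12.9% of all genes were called. The log2 ratios were -0.14 for Igfbp4 (SE 0.10, adjusted p 0.348), 0.21 for Igf1r (SE 0.22, adjusted p 0.566) and 0.04 for Igfbp7 (SE 0.36, adjusted p 0.960). Igf2r had 0.21 (SE 0.07, adjusted p 0.0544), the single one of the 4 with an unadjusted p under 0.05 (0.00753), and DESeq2 called it. The null libraries ran from 124 to 224 CPM for Igfbp4 in BMM and from 137 to 184 in OC. For Igf2r they ran from 85.6 to 116 CPM in BMM and from 102 to 129 in OC, and for Igf1r from 2.63 to 9.10 in BMM and from 5.63 to 7.88 in OC. All of these ranges overlapped, in contrast to the CPM ranges of the WT cultures. As a description of the contrast on which the family was chosen, the interaction of genotype with RANK-L was 2.19 (SE 0.14) for Igfbp4, 0.96 (SE 0.32) for Igf1r and -1.37 (SE 0.10) for Igf2r on the log2 scale.

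Between genotypes in BMM, 2 of 3 members other than Igf1 that passed the filter were called, against 52.3% of all genes tested. Igfbp4 (chromosome 11, 99041244 to 99054392, plus strand), whose product is cut by the protease PAPP-A to free bound IGF, was lower in null BMM. Its null libraries ran from 124 to 224 CPM, median 183, against 221 to 293 in WT, median 249, so that the highest null library touched the WT range (log2 ratio -0.48, SE 0.11, adjusted p 0.00218). On the TPM scale the ranges were separate, from 89.2 to 113 in null against 154 to 204 in WT, and limma on log2(TPM + 1) gave -0.78 (adjusted p 1.10e-06). Of the macrophage markers, 8 of 10 were called lower in null BMM, and their part in the Igfbp4 difference was not tested. Igf2r (chromosome 17, 12682406 to 12769664, minus strand) was higher, from 85.6 to 116 CPM in null, median 108, against 84.6 to 97.1 in WT. The ranges overlapped and the difference was small (log2 ratio 0.22, SE 0.08, adjusted p 0.0208). Without WT BMM replicate 1 or replicate 2 it no longer passed the threshold, at 0.20 in both fits. Igf1r was not called (log2 ratio -0.20, SE 0.26, adjusted p 0.545).

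In OC cultures, 3 of 3 such members were called, against 65.6% of all genes tested. Igfbp4 was 3.26-fold higher in null OC, from 137 to 184 CPM, median 163, against 47.2 to 52.0 in WT, a log2 ratio of 1.70 (SE 0.07, adjusted p 3.92e-12). Igf2r was 2.22-fold lower in null OC, from 102 to 129 CPM, median 123, against 246 to 302 in WT, a log2 ratio of -1.15 (SE 0.07, adjusted p 1.18e-10). Igf1r was higher in null OC, from 5.63 to 7.88 CPM, median 6.71, against 3.15 to 5.62 in WT, a log2 ratio of 0.75 (SE 0.17, adjusted p 9.44e-04). For Igfbp4 and Igf2r the 2 genotypes were far apart. For Igf1r the lowest null library lay just above the highest WT library in CPM. In TPM its ranges overlapped, from 1.70 to 2.33 in null OC and from 1.09 to 2.15 in WT OC. These are the cultures in which the osteoclast markers were lower in all 6 null libraries.

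**Figure D3:**
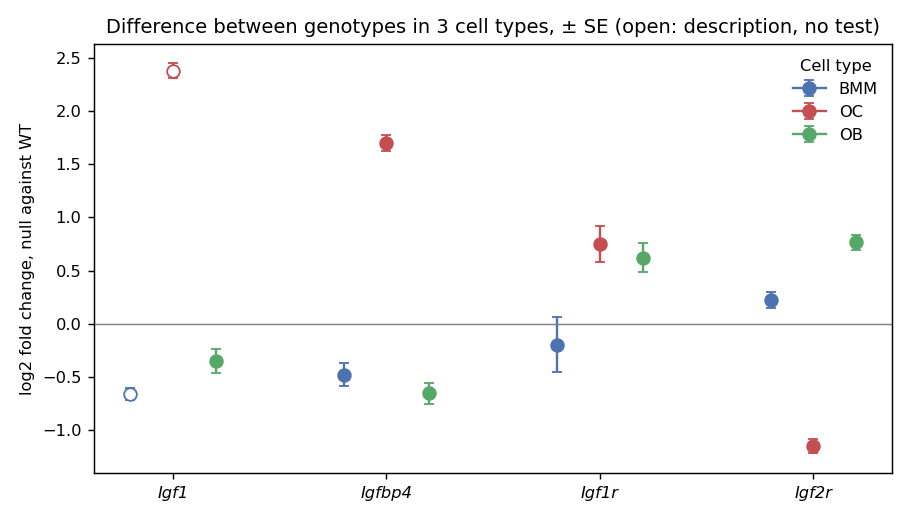
Log2 ratio of null against WT (y axis) with its SE for Igf1, Igfbp4, Igf1r and Igf2r in BMM (blue), OC (red) and OB (green), each from 6 against 6 libraries, with open circles for the Igf1 values given as a description. Igfbp4 lies below 0 in BMM and OB and at 1.70 in OC, and Igf2r lies above 0 in BMM and OB and at -1.15 in OC.

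In the osteoblast cultures all 10 members passed the filter, and 5 were called between genotypes, 2 higher and 3 lower in null OB, against 32.5% of all genes tested. The median log2 ratio of the 10 was -0.22, beside 0.00 over all genes tested. Markers of several cell types differed in the same libraries: 6 of 11 osteoblast, 5 of 10 osteoclast and 5 of 6 chondrocyte markers were called higher in null OB and none lower, and 8 of 10 macrophage markers were called lower. The median sums were 34824 TPM in WT OB and 55744 in null OB for osteoblast markers and 213 and 726 TPM for chondrocyte markers, and the sums of the genotypes did not overlap for these 4 lists. Their part in the differences of the members was not tested. Both receptors were higher in null OB. Igf2r ran from 74.4 to 89.5 CPM in null, median 84.6, against 42.7 to 53.2 in WT, median 49.4. The ranges were separate, and the log2 ratio was 0.77 (SE 0.07, adjusted p 5.41e-06). Igf1r ran from 43.0 to 81.5 CPM in null, median 54.98, against 35.4 to 41.3 in WT, median 37.5. The null libraries spread widely but all lay above the WT range (log2 ratio 0.62, SE 0.14, adjusted p 0.00337).

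Igf1, a ligand with values in OB that the choice of the family did not use, was lower in null OB. It ran from 358 to 521 CPM, median 393, against 425 to 635 in WT, median 554. The libraries overlapped, and the log2 ratio was -0.35 (SE 0.11, adjusted p 0.0266). This call rested on few libraries: it was kept in 5 of the 12 fits that left out 1 library, with values from -0.42 to -0.29 and an adjusted p of at most 0.0787, and was lost without WT replicate 3, 4 or 6 or null replicate 1, 4, 5 or 6. With an offset for average transcript length it was -0.56. The summed macrophage markers were lower in all 6 null OB libraries, with 8 of 10 markers called lower, where 32.5% of all genes were called. Their part in the Igf1 difference was not tested.

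Of the binding proteins, 2 of 6 were lower in null OB and 4 were not called, a share near the 32.5% of all genes called. Igfbp4 ran from 273 to 390 CPM in null, median 360, against 440 to 645 in WT, median 552, with separate ranges (log2 ratio -0.65, SE 0.10, adjusted p 1.81e-04). Igfbp6 (chromosome 15, 102144362 to 102149511, plus strand), which prefers IGF2 over IGF1, ran from 129 to 147 CPM in null, median 135, against 156 to 196 in WT, median 180. These ranges were separate too (log2 ratio -0.41, SE 0.06, adjusted p 1.296e-04). Its call was lost, at -0.20 and an adjusted p of 0.0590, under an offset that removed trends with length and GC, where the genes called in OB went from 4420 to 2023. Under that offset the log2 ratios were 0.36 for Igf2r, 0.46 for Igf1r, -0.73 for Igfbp4 and -0.55 for Igf1, which were all still called.

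Igfbp3 (chromosome 11, 7206086 to 7213923, minus strand), the main carrier of IGF in serum, had 40.4 ± 7.40 CPM in null OB and 46.7 ± 2.37 in WT OB (log2 ratio -0.21, SE 0.10, adjusted p 0.113). Igfbp2 (chromosome 1, 72824503 to 72852474, plus strand) had 257 ± 63.4 against 299 ± 57.6 CPM (log2 ratio -0.22, SE 0.17, adjusted p 0.369). Igfbp5 (chromosome 1, 72857932 to 72874884, minus strand), a binding protein abundant in bone matrix and the neighbour of Igfbp2, had 72.8 ± 13.3 against 65.3 ± 19.8 CPM (log2 ratio 0.15, SE 0.19, adjusted p 0.598). Igfbp7 (chromosome 5, 77349240 to 77408041, minus strand), which binds IGFs weakly, had 54.4 ± 14.3 against 52.3 ± 12.9 CPM (log2 ratio 0.05, SE 0.19, adjusted p 0.864). Igfbp3 was called with limma-voom and quality weights, at -0.28 (adjusted p 0.0260), and in 1 of the 12 fits that left out 1 library. The ranges of the genotypes overlapped for these 4 genes, and their missing calls do not show that the genotypes were equal.

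**Figure D4:**
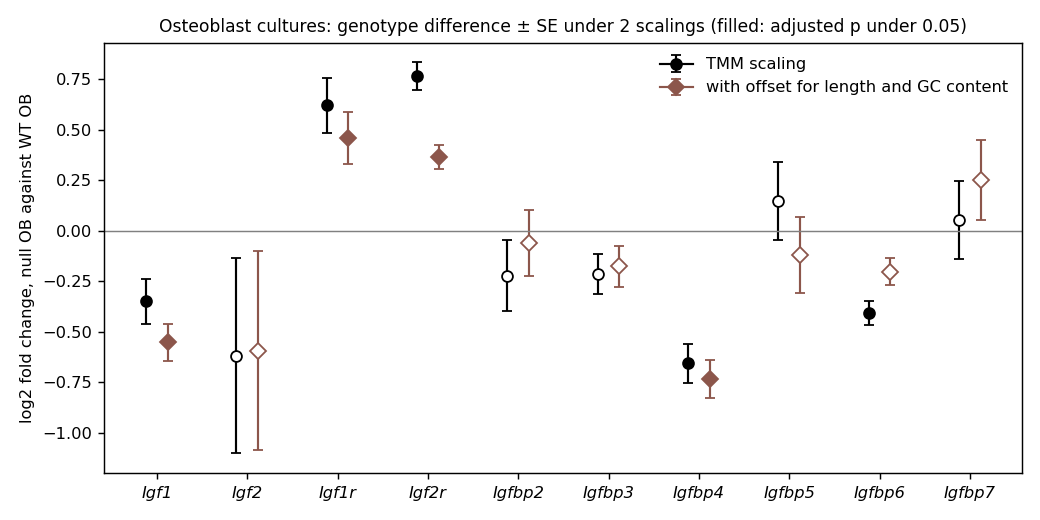
Log2 ratio of null OB against WT OB (y axis) with its SE for the 10 members, under TMM scaling (black circles) and under the length and GC offset (brown diamonds), filled where the adjusted p was under 0.05. Igf2r moves from 0.77 to 0.36 and Igfbp6 from -0.41 to -0.20 between the 2 scalings, while Igfbp4 and Igf1 lie below 0 and are filled under both.

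Outside the osteoblast cultures 5 of the binding proteins were at or near 0. Igfbp3 had no count in any of the 24 BMM and OC libraries, and Igfbp2 had none except 6 counts in null OC replicate 6. Against 3 counts per library, Igfbp2 was at least 1715-fold and Igfbp3 at least 268-fold higher in WT OB than in WT BMM. Igfbp5 had no count in WT OC, at least 391-fold below WT OB, and 2 counts in all of WT BMM. Igfbp6 had 7 counts in WT BMM and was 2933-fold higher in WT OB (exact 95% interval 1423 to 7296). Igfbp7 was detected in every library, with 2 to 17 counts per BMM or OC library, and was 197-fold higher in WT OB than in WT BMM (interval 138 to 293). These intervals cover counting error only.

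Per length, the 6 binding proteins together came to 174 ± 17.7 TPM in WT BMM, 101 ± 9.10 in null BMM, 37.9 ± 1.86 in WT OC and 107 ± 17.1 in null OC, and Igfbp4 made up at least 98.7% of that sum on average in each of these groups. In the osteoblast cultures the sum was 1171 ± 136 TPM in WT and 1044 ± 97.7 in null. There Igfbp2, Igfbp4 and Igfbp6 made up most of it, at 33.0%, 31.6% and 24.3% in WT and 35.9%, 26.5% and 23.4% in null. Igfbp7 gave 6.999% and 9.30%, Igfbp3 2.63% and 2.91%, and Igfbp5 1.44% and 1.99%. As a description, the ratio of this sum to Igf1 was 0.261 ± 0.0415 in WT BMM, 0.477 ± 0.0686 in WT OC, 0.205 ± 0.0302 in null BMM and 0.233 ± 0.0417 in null OC, and 3.56 ± 0.598 in WT OB and 4.16 ± 0.592 in null OB. The RNA of the binding proteins thus outnumbered that of Igf1 per length in the osteoblast cultures and not in the others.

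Whether the genotype difference itself changed with cell type was tested for the 9 members other than Igf1, of which Igf1r, Igf2r and Igfbp4 had a mean of at least 10 counts in every group. Igf2, Igfbp2, Igfbp3, Igfbp5 and Igfbp6 passed the filter through their OB libraries alone, so nothing is read from the counts of members called. Against BMM 2 of the 9 were called, where 45.9% of all genes were, the null effect in OB was higher for Igf2r by 0.56 (SE 0.10, adjusted p 1.45e-05) and for Igf1r by 0.83 (SE 0.27, adjusted p 0.0115), and that of Igfbp4 did not differ by the test (-0.16, SE 0.14, adjusted p 0.373). Under the length and GC offset both of these calls were lost, at -0.0037 for Igf2r and 0.53 for Igf1r. Against OC 4 of the 9 were called, where 55.2% of all genes were. The effect in OB was higher for Igf2r by 1.94 (SE 0.10, adjusted p 5.77e-19) and lower for Igfbp4 (-2.34, SE 0.15, adjusted p 3.05e-16). For Igf1r it was -0.12 (SE 0.27, adjusted p 0.747). The other calls rest on few counts outside OB: Igfbp6 (-2.49, SE 0.75, adjusted p 0.00504) had 3 counts over all WT OC libraries and 14 over null OC, and Igfbp5 (-5.74, SE 2.04, adjusted p 0.0185) had 0 and 40, of which 34 were in null OC replicate 6. With WT OC at 0 the fitted value of Igfbp5 depends on the prior count. It was no longer called without that library (-3.27, adjusted p 0.153), with limma-voom or with limma on log2(TPM + 1). Igfbp7 did not pass the adjusted threshold, at -0.998 against BMM (p 0.0231, adjusted p 0.0502) and -0.87 against OC (p 0.0395, adjusted p 0.0684), and DESeq2 called both. These comparisons share the OB libraries.

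The deposited counts are per transcript, which allowed a measure that the choice of Igf1 did not use: the share of its counts on its leading transcript. In BMM and OC it was taken from the same libraries and counts as that choice, so its tests there may not be independent of it. Igf1 had 8 listed transcripts, and Igf1-202 (7052 bases, with the long 3′ UTR that holds the 5p match) took most counts in every library. In BMM its share ran from 61.2% to 69.2% in null against 72.3% to 78.7% in WT, a difference of -10.1 percentage points with separate ranges (two-sided exact permutation test, p 0.00216, the smallest that 6 against 6 libraries allow; adjusted p 0.0141 over 13 tests of members and cell types). In OC it ran from 54.8% to 69.6% in null against 66.5% to 77.4% in WT, a difference of -8.69 points (exact p 0.0108, adjusted p 0.0352). The ranges overlapped, and the OC call was lost in 5 of 12 fits that left out 1 library, without WT replicate 3, 4, 5 or 6 or null replicate 3, at an adjusted p of at most 0.0675. In OB the share was higher in null, from 74.7% to 80.0% against 68.9% to 74.3%, a difference of 5.65 points with separate ranges (exact p 0.00216, adjusted p 0.0141). The difference between the cell types in this effect was not tested. The transcript next in share, Igf1-203 (1673 bases), went the other way, at 14.7% ± 1.76 in null BMM against 10.4% ± 1.75 in WT BMM and at 11.5% ± 0.891 in null OB against 14.6% ± 0.956 in WT OB (SD, n = 6).

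When the leading transcript was instead chosen by TPM, it was the short Igf1-205 (798 bases), with 8.96% of counts in null BMM and 6.02% in WT BMM (exact p 0.00216, adjusted p 0.0281). Its differences in OC and OB did not pass the adjusted threshold, at 1.299 and -1.57 points. Transcripts of a gene share most of their sequence, so these shares are estimates of the authors' quantification. Among the other members 1 of 10 tests was called: Igfbp3-201 held 97.3% ± 0.557 of Igfbp3 counts in null OB and 98.3% ± 0.487 in WT OB (exact p 0.00866, adjusted p 0.0352), a call lost in 4 of 12 fits that left out 1 library (without WT OB replicate 4 or null OB replicate 2, 3 or 4). Igfbp4-201 held between 84.2% and 92.2% of the counts of Igfbp4 over all groups, and its share was not called in any cell type.

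**Figure D5:**
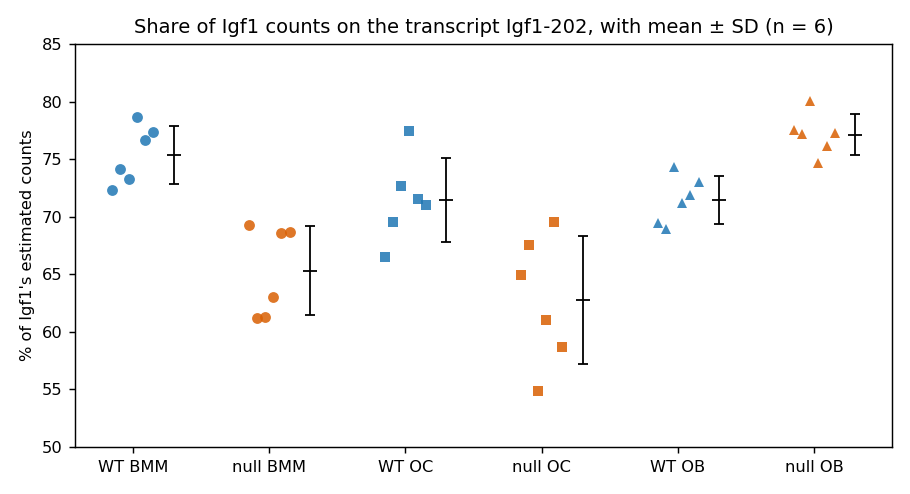
Percentage of the estimated counts of Igf1 on the transcript Igf1-202 (y axis, from 50% to 85%) in each library by group, with the mean and SD of 6 libraries in black. The null libraries lie below WT in BMM, mostly below in OC and above WT in OB.

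The rest of the pathway was followed with lists chosen for the system's biology and with the results of an earlier pass over these data known. Among 26 receptor adaptors and PI3K-AKT signalling genes, 4 were higher and 10 lower in null BMM of 23 tested, 7 and 7 in null OC of 23, and 10 and 2 in null OB of 25. The shares of all genes called were 52.3% in BMM, 65.6% in OC and 32.5% in OB, which are also the background for the lists that follow, and 14 of 23 in BMM and OC lay near them. The median log2 ratios of this list were -0.09, -0.04 and 0.19, beside 0.02, -0.03 and 0.00 over all genes tested. Under the length and GC offset the counts were 2 higher and 4 lower in null OB and 6 and 7 in null BMM, so that the balance of directions in OB turned. Grb10, an adaptor that restrains signalling from IGF1R and the insulin receptor, had 2.12 ± 0.704 CPM in null BMM against 0.240 ± 0.256 in WT BMM (log2 ratio 3.08, SE 0.54, adjusted p 2.13e-04). Both levels were low beside OB, where Grb10 had 372 CPM in WT and 507 in null. The summed fibroblast and stromal markers were also higher in null BMM, and their part in this difference was not tested. Foxo3, a transcription factor that AKT keeps out of the nucleus, had 99.97 ± 16.3 CPM in null OC against 41.5 ± 3.45 in WT OC (log2 ratio 1.28, SE 0.10, adjusted p 8.73e-09).

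The growth hormone axis, through which Igf1 is controlled in liver, had 3 genes higher and 2 lower in null OC of 6 tested, 3 and 2 in null BMM of 5, and 2 and 0 in null OB of 6, where the length and GC offset gave 1 and 1. The 2 of 6 in OB were near the 32.5% of all genes called there, and the backgrounds of the others were 65.6% and 52.3%. The growth hormone receptor Ghr was lower in null OC, at 0.601 ± 0.318 against 14.01 ± 2.17 CPM (log2 ratio -4.58, SE 0.24, adjusted p 4.25e-11). The kinase Jak2 had 13.8 ± 2.64 CPM in null BMM and 6.62 ± 1.33 in WT BMM (log2 ratio 1.07, SE 0.15, adjusted p 2.57e-05), and the feedback inhibitor Cish was called higher too, at 1.34 ± 0.343 against 0.442 ± 0.161 CPM. Of the 5 genes of mannose 6-phosphate sorting, the route on which IGF2R carries enzymes, 3 were higher and 2 lower in null OC, where 65.6% of all genes were called. Gnptab, part of the enzyme that makes the mannose 6-phosphate tag, was lower there, at 55.2 ± 6.79 against 187 ± 21.7 CPM (log2 ratio -1.75, SE 0.09, adjusted p 4.58e-11). The sorting receptor Sort1 was higher, at 15.3 ± 2.498 against 1.52 ± 0.678 CPM (log2 ratio 3.34, SE 0.24, adjusted p 2.51e-09). In null BMM 2 of the 5 were higher and 2 lower (background 52.3%), and in null OB 0 and 2 (background 32.5%).

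Among 9 proteases that cut IGF binding proteins and their inhibitors, 3 were higher and 0 lower in null OB of 9 tested, 2 and 2 in null OC of 4, and 1 and 1 in null BMM of 3, against 32.5%, 65.6% and 52.3% of all genes called. None of the 3 called in OB was called under the length and GC offset. The secreted protease Htra1 was lower in null OC, at 3.39 ± 1.88 against 25.0 ± 1.56 CPM (log2 ratio -2.88, SE 0.26, adjusted p 7.76e-08), and higher in null BMM, at 2.39 ± 0.752 against 0.251 ± 0.100 CPM. In OB it had 711 CPM in WT and 587 in null. The part of the stromal markers in the BMM difference of Htra1 was not tested. Htra3, a relative of Htra1, was lower in null BMM, at 0.643 ± 0.528 against 1.62 ± 0.582 CPM. The difference of Htra3 was larger in OC, at 0.307 ± 0.412 in null against 10.3 ± 1.24 CPM in WT (log2 ratio -4.87, SE 0.49, adjusted p 2.84e-07). Of 3 tested genes that bind the Igf2 message or lie at imprinted loci, Igf2bp2 was higher in null OC, at 14.8 ± 2.80 against 6.11 ± 0.390 CPM (log2 ratio 1.28, SE 0.13, adjusted p 2.68e-07). That list had 2 genes called higher in OC, 1 in BMM and 0 in OB, and none lower, against 65.6%, 52.3% and 32.5% of all genes called. Of the other ligands, receptors and binding proteins, the insulin receptor-related gene Insrr was lower in null BMM, at 0.340 ± 0.240 against 0.799 ± 0.163 CPM, and Esm1, an endothelial gene with an IGF-binding domain, had 2.94 ± 1.45 CPM in null OB and 0.819 ± 0.440 in WT OB (log2 ratio 1.84, SE 0.39, adjusted p 0.00251). No gene of this list was called in OC, where 1 of 8 was tested.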

How the data were processed

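RNA-seq libraries of 36 mouse cell cultures were used, grouped by the labels. Per the submitters' processing notes, kallisto and DESeq2 were used, with no versions, and the build is named as GRCh38, a human build, although the deposited transcript identifiers are mouse; the annotation is not given in the sources used here. Per the file headers, each deposited table gives an estimated count and a TPM value per transcript. Of 88198 transcripts, 97.5% had an identifier in GENCODE M21 (GRCm38). Counts and TPM were summed per gene and counts rounded. All genes were fitted with edgeR 4.0.16 (filterByExpr, TMM, robust quasi-likelihood test) and limma 3.58.1 in R 4.3.3, on the 12 libraries of a cell type for genotype, the 24 BMM and OC libraries for RANK-L, and all 36 across cell types, with Benjamini-Hochberg adjustment and a threshold of 0.05. CPM values use TMM over 36 libraries. Transcript shares were tested by exact permutation where every library had at least 100 counts. The steps were tested on simulated data.

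The members, lists and tests were chosen with earlier results of these data known. Genes named beside the members are those of the lists called with an absolute log2 fold change of at least 1, up to 6 per comparison by smallest p, and the genes most correlated with Igf1 (5 over 24 libraries, 3 over 36, mean of at least 10 CPM). Each result was also computed with DESeq2 1.42.0, limma-voom (quality weights), limma on log2(TPM + 1), RLE scaling, no filter or a minimum mean of 10 counts, a block for replicate number, offsets for average transcript length and for length and GC content, a fit of all 36 libraries, and leaving out each library. Folds against groups at 0 used 3 counts per library. The strand of the reads is not given in the sources used here, so reads of the antisense genes Airn (at Igf2r) and Igf2os (at Igf2) cannot be told apart.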

Additional observations from a re-analysis of the deposited data

Results flagged for a closer look

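The genotype effect was compared between cell types by an interaction test over all 36 libraries (edgeR) for the 9 members other than Igf1. Between OB and BMM 2 of the 9 were called, where 45.9% of all genes were. Between OB and OC 4 of the 9 were called, where 55.2% of all genes were. Both counts include members that passed the filter through OB alone. Igf1r and Igf2r had higher null effects in OB than in BMM, by 0.83 and 0.56 on the log2 scale, and both calls were lost under the length and GC offset, at 0.53 and -0.0037. Against OC, the effect in OB was higher for Igf2r by 1.94 and lower for Igfbp4 (-2.34), Igfbp6 (-2.49) and Igfbp5 (-5.74). The last 2 rest on at most 40 counts over the OC libraries of a genotype, and Igfbp5 was not called without null OC replicate 6 (-3.27).

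Among 45 groups of values tested, 7 had 1 library apart from the other 5 by the gap test at the 95% level. Chance gives about 1 in 20 where values are normally distributed. That rate does not hold for groups of a few counts, as with Igfbp2, Igfbp5, Igfbp6 and Igfbp7 outside OB. Nothing is therefore read from the number of cases. In null OC replicate 6 Igf2r was lowest at 102 CPM (the others lay between 120 and 129), Igfbp2 was highest at 0.450 CPM (6 counts, the others at 0) and Igfbp5 was highest at 2.55 CPM (34 counts, the next at 0.204). That library also had the highest sum of fibroblast and stromal markers of its group, at 21.5 TPM, and their part in these values was not tested. Without it the null OC against null BMM difference of Igf2r was 0.25 and called. Igfbp5 was highest in null BMM replicate 4, at 0.832 CPM (17 counts), where the stromal marker sum lay within the range of its group, 4.14 to 7.58 TPM. In null OB replicate 6 Igfbp5 was lowest, at 47.5 CPM against 72.1 to 86.6 in the others. Igfbp6 was highest in WT BMM replicate 2 at 0.270 CPM (5 counts), and Igfbp7 in WT BMM replicate 1 at 0.572 CPM (10 counts).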

How the results depend on the processing

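Of 1582 member values and transcript counts recomputed under the alternatives, 1507 stayed on their side of the threshold and in their direction, or moved by less than 1 SD where no test was made. Of the others, 19 moved further, 17 changed sign, 15 lost a call and 24 gained one. Most of the 1582 came from fits with a library left out, which keep nearly all of the data. The members called between genotypes in BMM fell from 2 to 1 with limma on log2(TPM + 1) and with the replicate block (1 to 2 when a library was left out), because Igf2r was lost. In OC they rose from 3 to 6 in the fit of all 36 libraries, where members near 0 passed the filter through OB. Between null OC and null BMM 1 member, Igf2r, was called with RLE scaling and with DESeq2, against 0 (0 to 1 with a library left out). Under the length and GC offset the members whose genotype effect differed between OB and BMM fell from 2 to 0. The interaction of Igf1 with RANK-L was 2.94 with limma on log2(TPM + 1). The leading-transcript tests called fell from 4 to 1 with the transcript chosen by TPM, and were 3 to 5 with a library left out.

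Signs changed for some values near 0: in OB, Igfbp5 was -0.12 with the length and GC offset, and Igfbp7 was -0.092 with limma-voom (-0.081 to 0.17 with a library left out). Between null OC and null BMM, Igfbp4 was 0.061 with limma on log2(TPM + 1) and 0.015 with the offset for average length, and Igfbp7 was -0.073 with limma-voom (-0.089 to 0.17 with a library left out). Some larger values changed sign too. In OB against BMM the effect of Igf1 went from 0.33 to -0.29 with the average-length offset. That of Igf2r, called at 0.56, was -0.0037 with the length and GC offset. The effect of Igfbp4 went from -0.16 to 0.036 with the average-length offset and to 0.36 with limma on log2(TPM + 1). In OB against OC the effect of Igf1r went from -0.12 to 0.38 and that of Igfbp5 from -5.74 to 0.20, both with limma on log2(TPM + 1). With limma-voom the effect of Igfbp5 kept its sign, at -1.35. The causes were not tested.

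Over all genes, the count called between null OC and null BMM, 1628, was 1037 with limma-voom and 810 to 1046 without null BMM replicate 2, 3 or 4 or null OC replicate 3. Replicate numbers did not pair the samples: the median correlation of same-numbered deviations lay between -0.13 and 0.05, so the replicate block is a hint at most. With the block the effect of Igfbp7 in OB against BMM was called (-1.01, adjusted p 0.0394). The call of Igf2r between genotypes in BMM was lost with it (0.22, adjusted p 0.0676). Depth limits Igf2 and, outside OB, Igfbp2, Igfbp3, Igfbp5, Igfbp6 and Igfbp7.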

Other observations

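The genes whose values were most like those of Igf1 were ranked by Pearson correlation of log2 CPM, as a description over libraries that share groups and depth. Over the 24 BMM and OC libraries, among 8351 genes with a mean of at least 10 CPM, they were Tbxas1, the thromboxane A synthase (r = 0.994), S1pr1, a receptor for sphingosine 1-phosphate (0.991), Tlr8, an endosomal sensor of RNA (0.990), Man2a2, a Golgi mannosidase (0.989), and Dtx3 (0.989). Tbxas1 averaged 219 ± 10.7 CPM (SD, n = 6) in WT BMM, 156 ± 4.20 in null BMM, 53.0 ± 3.10 in WT OC and 150 ± 7.26 in null OC. Over all 36 libraries the 3 highest were S1pr1 (0.982), Tmem140 (0.968) and Mylip, an E3 ligase for the LDL receptor (0.968). S1pr1 had 193 ± 13.6 CPM in WT BMM, 124 ± 4.63 in null BMM, 23.1 ± 2.03 in WT OC, 124 ± 17.5 in null OC, 85.9 ± 5.70 in WT OB and 68.5 ± 8.21 in null OB.

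Igf1r varied far more among null BMM libraries than among WT BMM libraries, with a coefficient of variation of 47.7% against 7.95%. The null libraries had 2.63, 3.27, 4.46, 6.48, 8.67 and 9.10 CPM, from 49 to 186 counts each, against 5.81 to 7.38 CPM in WT. In OB the coefficient of variation of Igf1r was 25.1% in null and 5.83% in WT.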
